A study of Homo sapiens with 18 samples.

Results

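Aminoacyl-tRNA synthetases are the enzymes that attach each amino acid to its tRNA. The 35 synthetase genes described here were chosen by name from the 61267 genes of the RNA-seq count table, with no measured value used. Of these, 19 encode cytosolic enzymes and 16 encode mitochondrial enzymes, and all 35 were counted. The m6A peaks assigned to them were those that overlapped an exon of the gene on the same strand, 116 of 39708 deposited peaks on 31 of the 35 genes. The series compared LoVo cells, an established human colorectal cancer line, that carry METTL3 K513R with LoVo cells that carry wild-type METTL3 (WT), to learn what a methylated lysine of METTL3 does. METTL3 is the catalytic subunit of the methyltransferase that makes N6-methyladenosine (m6A) in mRNA, and K513R puts an arginine in place of that lysine. Each genotype had 3 RNA-seq libraries, 3 MeRIP IP libraries and 3 MeRIP input libraries, so 18 libraries in all. RNA-seq measured total RNA freed of rRNA, whereas MeRIP started from fragmented poly(A) RNA, read directly as input and, once enriched with an m6A antibody, as IP. The labels name no other allele, drug or time, and do not say how the K513R cells were made or whether they are 1 clone. They also do not say whether the 3 libraries of a group came from separate cultures, so the error behind each p-value is that of these libraries alone and may be purely technical.

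Cytosolic and mitochondrial synthetases are encoded by separate nuclear genes for nearly every amino acid, with the mitochondrial protein imported after translation. GARS1 and KARS1 are known exceptions that encode both forms, and EPRS1 joins the glutamate and the proline enzyme in 1 protein. Several cytosolic synthetases sit together in the multisynthetase complex on the scaffold proteins AIMP1, AIMP2 and EEF1E1. Uncharged tRNA is sensed by the kinase GCN2 (gene EIF2AK4), which raises translation of the transcription factor ATF4. Many cytosolic synthetase genes are known ATF4 targets through the C/EBP-ATF response element.

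The core of that element, written TGATGNAA, was searched for on both strands in RefSeq promoter windows of GRCh38.p14, each running from 250 bases before to 50 bases after a gene start. The windows table held 30 of the 35 genes, so LARS1, VARS1, YARS1, AARS2 and VARS2 were not searched. A match was present in 7 of 16 cytosolic genes and in 1 of 14 mitochondrial genes, against 4.46% of the 27305 genes in that table. The 30-base stretches around the matches are shown because 7 of the 8 belong to cytosolic genes, in the 5′ to 3′ direction of the gene, with the matching letters in capitals (TGATGNAA, or TTNCATCA where the match lies on the other strand).
GARS1: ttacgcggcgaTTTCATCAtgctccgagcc
TARS1: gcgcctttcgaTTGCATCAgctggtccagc
CARS1: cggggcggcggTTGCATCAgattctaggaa
NARS1: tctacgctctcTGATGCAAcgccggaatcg
MARS1: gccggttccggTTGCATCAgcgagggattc
AARS1: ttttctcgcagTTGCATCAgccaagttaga
IARS1: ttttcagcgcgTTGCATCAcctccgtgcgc
YARS2: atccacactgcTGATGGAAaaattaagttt
The stretches lie at chr7:30594834-30594863 (plus strand) for GARS1, chr5:33440956-33440985 (plus) for TARS1, chr11:3057407-3057436 (minus) for CARS1, chr18:57621804-57621833 (minus) for NARS1 and chr12:57488053-57488082 (plus) for MARS1. Those of AARS1, IARS1 and the mitochondrial YARS2 lie at chr16:70289675-70289704, chr9:92293692-92293721 and chr12:32756076-32756105, all on the minus strand. In 6 of the 8 the matched letters begin within 33 bases of an annotated start, and in AARS1 and YARS2 they begin at -187 and -197. A match in these letters is a description of the window and not evidence of binding.

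RNA-seq gene counts summed to between 47451837 and 53795212 per K513R library and between 47105235 and 51886164 per WT library. Counts inside all deposited peaks were fewer in K513R, at 5905811 to 9198650 per K513R IP library against 11076729 to 12491969 per WT IP library, and at 2625446 to 4847236 per K513R input library against 5025027 to 6200264 per WT input library. The RNA-seq libraries of the genotypes differed over much of the transcriptome. The 680 genes of the 7SL family took 17.9% ± 0.742 of all counts in K513R and 2.30% ± 0.518 in WT, while the 37 genes of the mitochondrial genome took 0.281% ± 0.0631 in K513R and 4.16% ± 0.725 in WT (SD, n = 3 each). Colon epithelium markers summed to 2485 to 2678 CPM (counts scaled to a common library total) in K513R and to 10655 to 15410 CPM in WT, with 6 of 8 lower and 1 higher in K513R. Markers of blood, endothelium and fibroblasts summed to 43.3 to 49.4 CPM in K513R and 31.5 to 42.6 CPM in WT, with 6 of 9 higher, 1 lower and none at 0. The part of these differences in the synthetase values was not tested.

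In RNA-seq, 29 of the 35 synthetase genes were lower and 4 were higher in K513R than in WT (edgeR quasi-likelihood test, Benjamini-Hochberg adjusted p under 0.05 over all genes tested). In the same test 78.3% of the 30377 genes tested were called, 36.9% as lower and 41.5% as higher. Among the 13555 genes with a WT level within the range of the synthetases, 55.3% were lower and 28.4% were higher. The median log2 fold change of K513R over WT was -0.87 over the 35 genes, -0.46 over the genes in that range and 0.13 over all genes tested. Taken as a share of all gene counts, the 35 genes held 0.189% ± 0.0138 in K513R and 0.440% ± 0.0205 in WT (SD, n = 3 each). In bulk RNA, fewer cells of a kind and less RNA per cell cannot be told apart.

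The fall was larger among the cytosolic enzymes. All but 1 of the 19 cytosolic genes were lower in K513R, none was higher (0 also at an unadjusted p under 0.05 and with DESeq2), and their median log2 fold change was -1.23, with a range of -2.38 to -0.10. Of the 16 mitochondrial genes 11 were lower and 4 were higher, and their median was -0.50, with a range of -1.70 to 1.61. The difference of the medians, cytosolic minus mitochondrial, was -0.73. It was -0.54 among the 11 cytosolic and 7 mitochondrial genes whose WT levels per kb lie in the range that both compartments share. That range leaves out all 4 mitochondrial genes that were higher, and also QARS1, the cytosolic gene that was not called. In the 33 genes called, the 3 K513R libraries lay wholly to 1 side of the 3 WT libraries, which was so for 37.8% of all genes on the lower side and 42.5% on the higher side. Among cytosolic genes with a promoter window, the median log2 fold change was -1.37 with a TGATGNAA match and -1.18 without. Those without a match ranged from SARS1, at -2.06, to QARS1, at -0.10. A part of the match in the change was not tested. The plot of log2 fold changes by gene shows the compartments side by side.

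**Figure D1:**
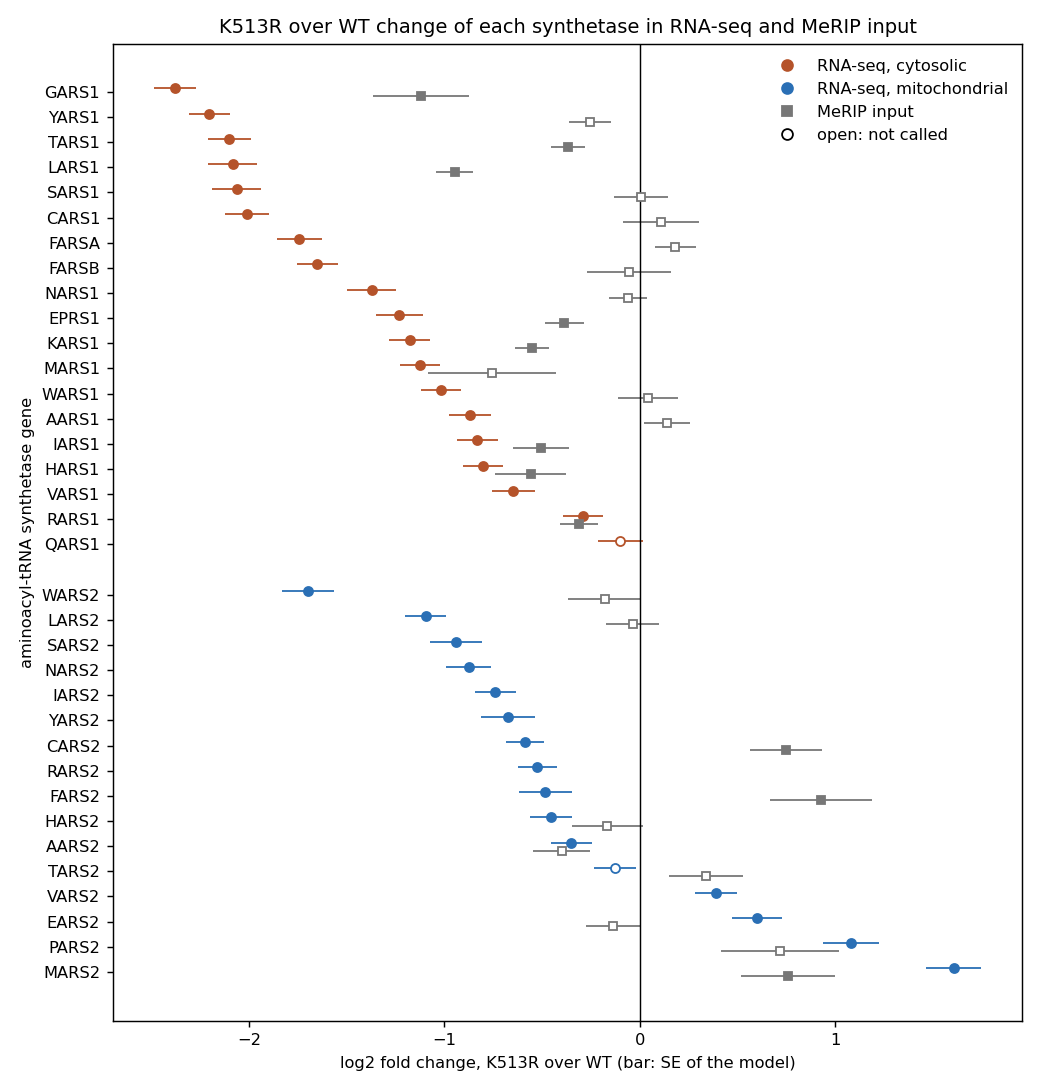
Log2 fold change of K513R over WT (x axis) for each of the 35 synthetase genes (y axis) in RNA-seq (circles, orange for cytosolic and blue for mitochondrial) and in MeRIP input (grey squares), with the SE of the model as bars and open symbols where the adjusted p was 0.05 or more. Cytosolic circles run from -2.38 for GARS1 to -0.10 for QARS1, and 4 mitochondrial circles lie right of 0.

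GARS1, the glycine enzyme of both compartments (chr7:30580533-30634033, plus strand, 17 exonic blocks), had the largest fall of all 35. Its level was 48.7, 45.0 and 46.6 CPM in K513R libraries, against 249, 247 and 233 CPM in WT libraries. The groups did not overlap, the log2 fold change was -2.38 ± 0.11 (SE), and the WT mean was 5.20 times the K513R mean (adjusted p = 1.73e-12). YARS1, the tyrosine enzyme (chr1:32775237-32818031, minus strand), had 37.8, 39.7 and 39.2 CPM in K513R libraries, against 177, 175 and 185 CPM in WT libraries. Every K513R library was thus far below every WT library, with a log2 fold change of -2.20 ± 0.10 (adjusted p = 3.17e-12). TARS1, the threonine enzyme (chr5:33440696-33468091, plus strand), had 84.5, 93.3 and 87.1 CPM in K513R libraries, against 412, 369 and 354 CPM in WT libraries. LARS1, the leucine enzyme that also reports leucine to the mTORC1 pathway (chr5:146110566-146182696, minus strand), had 57.3, 62.0 and 64.7 CPM in K513R libraries, against 285, 281 and 213 CPM in WT libraries. Neither pair of groups overlapped, and the log2 fold changes were -2.10 ± 0.11 for TARS1 and -2.08 ± 0.13 for LARS1 (adjusted p = 1.28e-11 and 6.55e-11 in the order given).

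SARS1, the serine enzyme, had 58.0, 57.5 and 51.9 CPM in K513R libraries, against 264, 245 and 191 CPM in WT libraries, a log2 fold change of -2.06 ± 0.13. CARS1, the cysteine enzyme, had 21.0, 19.1 and 22.2 CPM in K513R libraries, against 89.6, 86.2 and 75.1 CPM in WT libraries, a log2 fold change of -2.01 ± 0.11. Both were clear of overlap, with adjusted p = 8.28e-11 for SARS1 and 2.43e-11 for CARS1. The phenylalanine enzyme is a tetramer of the FARSA and FARSB products, and its subunit genes fell by similar amounts. FARSA had 27.0, 31.1 and 29.1 CPM in K513R libraries, against 86.0, 96.7 and 109 CPM in WT libraries, and its log2 fold change was -1.74 ± 0.11. FARSB averaged 11.3 ± 0.426 CPM in K513R and 35.5 ± 1.96 CPM in WT (SD, n = 3 each), with a log2 fold change of -1.65 ± 0.11. KARS1, the lysine enzyme of both compartments (chr16:75627474-75648643, minus strand), had 77.7, 86.8 and 74.8 CPM in K513R libraries, against 180, 180 and 180 CPM in WT libraries. Its groups did not overlap and its log2 fold change of -1.18 ± 0.10 lay near the median of the cytosolic genes (adjusted p = 1.17e-08).

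The 7 synthetases of the multisynthetase complex (EPRS1, IARS1, LARS1, MARS1, QARS1, RARS1 and KARS1) included the smallest changes as well as LARS1. Among them 6 of 7 were lower, with a median of -1.12, while the 12 cytosolic genes outside the complex were all lower, with a median of -1.70. The order was turned in the MeRIP inputs. There 5 of 6 complex genes tested were lower, with a median of -0.53, against 3 of 11 outside it, with a median of -0.05. QARS1, the glutamine enzyme, was the cytosolic gene that was not called, with 114, 110 and 115 CPM in K513R libraries, against 106, 115 and 142 CPM in WT libraries. The groups overlapped and the log2 fold change was -0.10 ± 0.12 (adjusted p = 0.446), or 0.17 with upper-quartile factors. RARS1, the arginine enzyme, had 54.6, 50.8 and 51.7 CPM in K513R libraries, against 69.3, 63.7 and 59.4 CPM in WT libraries. Those values lie close together without overlap, and the log2 fold change of -0.29 ± 0.10 (adjusted p = 0.0153) was no longer called without K513R replicate 2 (adjusted p = 0.0571) or without K513R replicate 3 (adjusted p = 0.0663).

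Among mitochondrial genes the falls were led by WARS2, LARS2, SARS2 and NARS2. WARS2, the tryptophan enzyme (chr1:119031216-119140654, minus strand), had 4.76, 4.06 and 4.84 CPM in K513R libraries, against 15.6, 14.9 and 13.8 CPM in WT libraries. LARS2, the leucine enzyme, had 49.1, 43.5 and 44.0 CPM in K513R libraries, against 94.1, 93.1 and 104 CPM in WT libraries. In both the K513R libraries were all lower, with log2 fold changes of -1.70 ± 0.13 for WARS2 and -1.09 ± 0.10 for LARS2 (adjusted p = 2.18e-09 and 3.27e-08 in the order given). NARS2, the asparagine enzyme, had 11.3, 12.7 and 14.1 CPM in K513R libraries, against 24.2, 22.7 and 23.0 CPM in WT libraries, a log2 fold change of -0.88 ± 0.11 (adjusted p = 1.72e-06). SARS2, the serine enzyme, had 6.86, 6.49 and 5.47 CPM in K513R libraries, against 11.6, 12.4 and 12.2 CPM in WT libraries, a log2 fold change of -0.94 ± 0.13 (adjusted p = 4.19e-06). For SARS2, 48.2% of the exonic length is also annotated to another gene on the same strand, so its counts are uncertain.

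The 4 synthetase genes that rose were all mitochondrial. MARS2, the methionine enzyme encoded by a single exonic block (chr2:197705369-197708395, plus strand), had 17.8, 14.5 and 16.4 CPM in K513R libraries, against 5.15, 4.65 and 6.17 CPM in WT libraries. Every K513R library was above every WT library, and the K513R mean was 3.05 times the WT mean (log2 fold change 1.61 ± 0.14, adjusted p = 8.71e-09). PARS2, the proline enzyme (chr1:54756898-54764523, minus strand), had 8.75, 8.85 and 8.31 CPM in K513R libraries, against 3.77, 3.91 and 4.55 CPM in WT libraries. Its log2 fold change was 1.08 ± 0.14 (adjusted p = 2.22e-06). EARS2, the glutamate enzyme (chr16:23520754-23557731, minus strand), had 50.5, 42.4 and 50.7 CPM in K513R libraries, against 26.0, 31.3 and 37.3 CPM in WT libraries, a log2 fold change of 0.60 ± 0.13 (adjusted p = 0.00033). VARS2, the valine enzyme, had 40.6, 36.3 and 42.8 CPM in K513R libraries, against 28.3, 29.5 and 33.5 CPM in WT libraries, a log2 fold change of 0.39 ± 0.11 (adjusted p = 0.0033). None of these groups overlapped, but 63.0% of the exonic length of VARS2 is shared with another gene on the same strand.

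Set beside the enzyme for the same amino acid in the other compartment, the cytosolic gene had the lower log2 fold change in 15 of 17 pairs. EPRS1 enters with both PARS2 and EARS2, and FARS2 with both FARSA and FARSB, so the pairs are not all separate. The widest gap was that of MARS1 and MARS2, at -1.12 and 1.61, with 13.3% of the exonic length of MARS1 shared with other genes. EPRS1 fell, with a log2 fold change of -1.23, against rises of 1.08 for PARS2 and 0.60 for EARS2. The narrowest gap was that of the isoleucine enzymes, -0.83 for IARS1 and -0.74 for IARS2. The order was turned in the arginine pair, with -0.29 for RARS1 and -0.52 for RARS2, and in the tryptophan pair, with -1.02 for WARS1 and -1.70 for WARS2. HARS1 and HARS2, the histidine enzymes, start head to head on chromosome 5, and their promoter windows share 184 bases. Their log2 fold changes were -0.80 ± 0.10 for HARS1 and -0.45 ± 0.11 for HARS2.

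**Figure D2:**
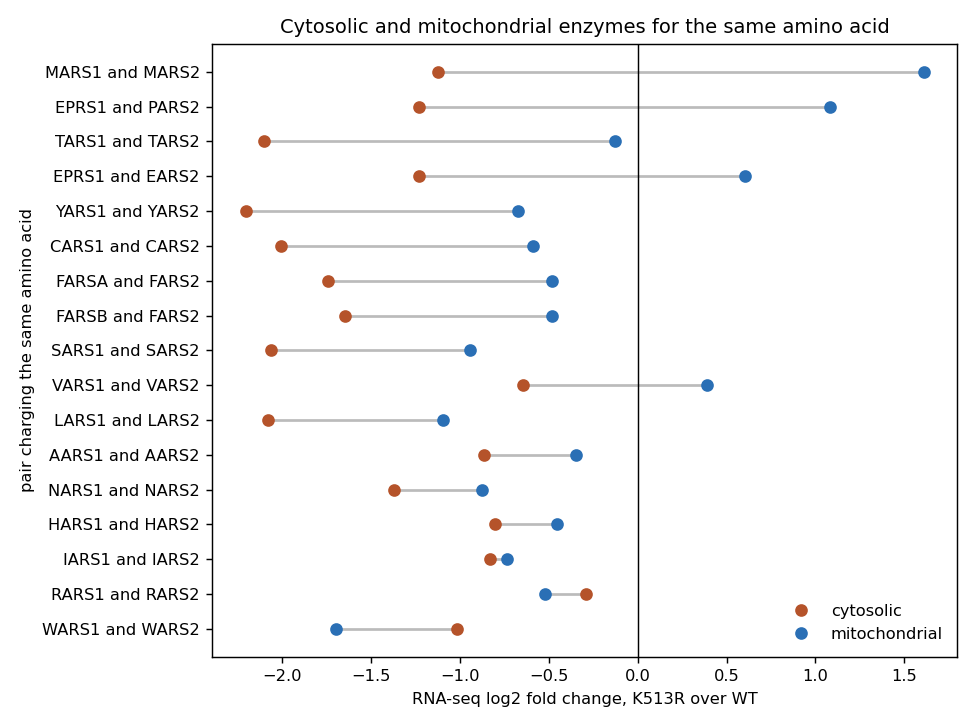
RNA-seq log2 fold change of K513R over WT (x axis) for the cytosolic (orange) and mitochondrial (blue) gene of each amino acid, 1 pair per row, joined by a line. Orange lies left of blue in 15 of 17 rows, with the widest gap for MARS1 and MARS2 and the order turned for the arginine and tryptophan enzymes.

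Levels between genes were compared as CPM per kb of merged exonic length, a length that counts every annotated exon and so understates genes with many rarely used ones. TARS1 stood highest in WT, with 20.7 ± 1.05 CPM per kb in K513R and 88.9 ± 7.06 CPM per kb in WT (SD, n = 3 each). NARS1, the asparagine enzyme, had 29.7 ± 1.02 CPM per kb in K513R and 76.9 ± 13.6 CPM per kb in WT, and SARS1 had 14.5 ± 0.880 CPM per kb in K513R and 60.6 ± 9.83 CPM per kb in WT. The SD ranges of TARS1 and NARS1 overlap in WT, as do those of NARS1 and SARS1, but within each WT library the order was the same. TARS1 read 96.8, 86.7 and 83.3 CPM per kb, NARS1 91.8, 73.9 and 65.1 CPM per kb and SARS1 68.5, 63.6 and 49.6 CPM per kb in WT libraries 1, 2 and 3. In K513R the first place belonged to NARS1, the next to AARS1, at 27.3 ± 1.71 CPM per kb, and TARS1 stood at rank 5.

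The NARS1 libraries read 122, 126 and 117 CPM in K513R, against 375, 302 and 266 CPM in WT. The highest mitochondrial gene was IARS2, with 59.7, 70.8 and 60.7 CPM in K513R libraries, against 106, 105 and 108 CPM in WT libraries, or 15.4 ± 1.49 CPM per kb in K513R and 25.7 ± 0.392 CPM per kb in WT. It fell without overlap, by a log2 fold change of -0.74 ± 0.11 (adjusted p = 4.92e-06). AARS2, the alanine enzyme, had 45.3, 42.3 and 43.0 CPM in K513R libraries, against 50.8, 55.6 and 59.8 CPM in WT libraries, a smaller fall of -0.35 ± 0.10 on the log2 scale (adjusted p = 0.00503). YARS2, the tyrosine enzyme, had 12.6, 13.2 and 13.7 CPM in K513R libraries, against 18.2, 18.3 and 26.4 CPM in WT libraries, with 1 WT library well above the rest. Its exons share 18.1% of their length with a gene on the other strand.

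MARS2 and PARS2 moved up the order of levels, while cytosolic genes moved both ways. MARS2 held rank 21 of 35 in K513R and rank 33 in WT, and PARS2 held rank 26 in K513R and rank 34 in WT. GARS1 held rank 28 in K513R and rank 14 in WT, and YARS1 held rank 23 in K513R and rank 13 in WT. By contrast, QARS1 held rank 3 in K513R and rank 8 in WT, and RARS1 held rank 8 in K513R and rank 12 in WT. The median cytosolic level per kb was 2.62 times the median mitochondrial level in K513R and 4.40 times in WT. With the 5 genes that share more than 10% of their exonic length left out, these ratios were 3.47 in K513R and 4.50 in WT. Across the 35 genes the WT level per kb and the log2 fold change had a Spearman rho of -0.46, but within compartments it was -0.09 over the 19 cytosolic and -0.14 over the 16 mitochondrial genes. These are correlations across genes of the same libraries, and the WT level enters both measures.

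**Figure D3:**
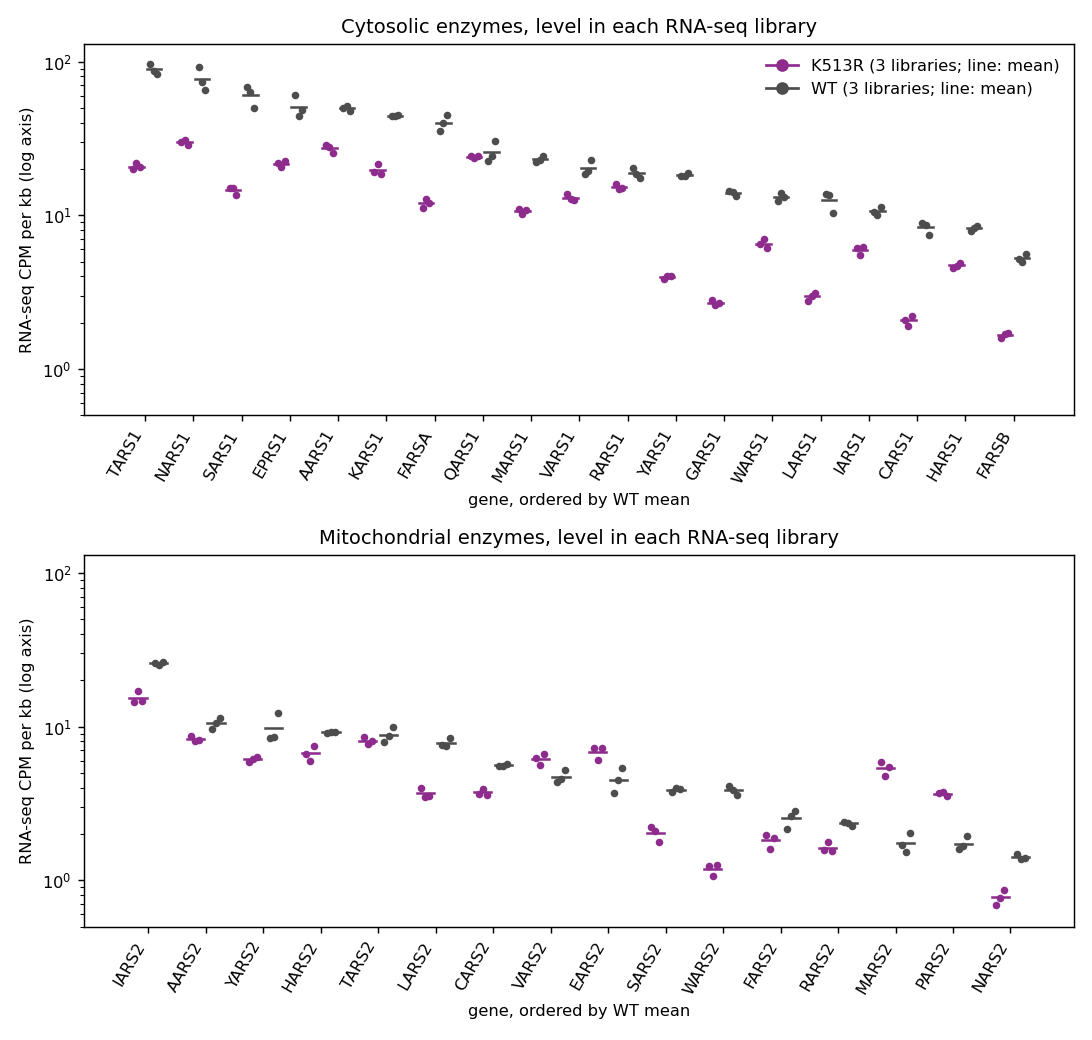
CPM per kb of exonic length (y axis, log scale) in each RNA-seq library, for the cytosolic genes (top) and the mitochondrial genes (bottom) in the order of their WT mean, with K513R (purple) left of WT (grey) and a line at each mean of 3 libraries. K513R points lie below WT points for 18 of the cytosolic genes, while MARS2, PARS2, EARS2 and VARS2 lie above.

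The MeRIP inputs gave a reading of the same genes in poly(A) RNA, from counts summed over non-overlapping peaks of each gene, so only genes with a peak and only reads inside peaks are covered. Of the 27 synthetase genes past the filter, 8 were lower and 3 were higher in K513R, against 13.6% lower and 13.5% higher among the 7843 genes tested. All 8 lower genes were cytosolic (of 17) and all 3 higher genes were mitochondrial (of 10). At an unadjusted p under 0.05, 0 cytosolic genes were higher and 1 mitochondrial gene was lower, and DESeq2 called 0 of either kind. The medians of the log2 fold change were -0.31 for cytosolic and 0.15 for mitochondrial genes, against 0.01 over all genes tested. The count moved with the libraries, to 7 when WT replicate 1 and to 6 when WT replicate 2 was left out, and with library size as the only scaling it was 5 lower and 5 higher.

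LARS1 had the firmest fall in the inputs, with 299, 248 and 263 CPM in K513R libraries, against 504, 547 and 515 CPM in WT libraries. Its groups were far apart and its log2 fold change was -0.95 ± 0.10 (adjusted p = 2.8e-06). GARS1 had 85.3, 39.3 and 40.5 CPM in K513R inputs, against 108, 143 and 122 CPM in WT inputs, a log2 fold change of -1.12 ± 0.25 (adjusted p = 0.00663). KARS1 had 603, 574 and 625 CPM in K513R inputs, against 868, 885 and 889 CPM in WT inputs, a log2 fold change of -0.55 ± 0.09 (adjusted p = 0.000181). Neither group overlapped, though K513R replicate 1 of GARS1 lay apart from the other two. TARS1, EPRS1, IARS1, HARS1 and RARS1 were also lower, by -0.56 to -0.31 on the log2 scale. Of these, HARS1 was called in 1 of 6 fits that each left out a replicate, and RARS1 in 2 of 6.

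The genes that were higher in the inputs were FARS2, MARS2 and CARS2. FARS2, the phenylalanine enzyme of mitochondria, had 15.03, 15.21 and 16.79 CPM in K513R inputs, against 8.59, 6.05 and 9.61 CPM in WT inputs, a log2 fold change of 0.93 ± 0.26 (adjusted p = 0.0133). MARS2 had 15.7, 24.6 and 21.4 CPM in K513R inputs, against 11.7, 13.9 and 10.5 CPM in WT inputs, a log2 fold change of 0.76 ± 0.24 (adjusted p = 0.0262). CARS2, the cysteine enzyme of mitochondria, had 31.1, 41.4 and 44.6 CPM in K513R inputs, against 22.7, 24.9 and 21.2 CPM in WT inputs, a log2 fold change of 0.75 ± 0.18 (adjusted p = 0.00575). In all 3 genes each K513R input lay above each WT input. The MARS2 call was lost in 4 of the 6 fits that left out a replicate and the FARS2 call without WT replicate 2. MARS2 was thus higher in both assays, while FARS2 and CARS2 were lower in RNA-seq, with log2 fold changes of -0.48 ± 0.14 and -0.59 ± 0.10.

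The change itself differed between RNA-seq and input for 21 of the 27 genes by the assay by genotype term of a joint edgeR model, 16 with a lower and 5 with a higher change in RNA-seq. Among all 7835 genes in that model 64.1% differed, 33.2% lower and 30.9% higher. The largest differences, RNA-seq minus input, were those of CARS1, SARS1, YARS1 and FARSA, all of which fell in RNA-seq and were not called in the inputs. CARS1 had 33.2, 22.0 and 35.9 CPM in K513R inputs, against 31.3, 24.6 and 28.5 CPM in WT inputs, and its difference of log2 fold changes was -1.65 ± 0.22 (adjusted p = 1.08e-06). SARS1 had 72.4, 68.7 and 55.6 CPM in K513R inputs, against 61.0, 70.8 and 65.5 CPM in WT inputs, with a difference of -1.60 ± 0.19 (adjusted p = 2.11e-07). The input groups of both genes overlapped. YARS1 had 109, 105 and 104 CPM in K513R inputs, against 134, 121 and 124 CPM in WT inputs, with a difference of -1.48 ± 0.14 (adjusted p = 8.43e-09), and its input groups lay apart without being called (adjusted p = 0.086). FARSA had 271, 342 and 312 CPM in K513R inputs, against 257, 262 and 293 CPM in WT inputs, with a difference of -1.46 ± 0.16 (adjusted p = 1.4e-07). Outside the multisynthetase complex 10 of 11 cytosolic genes had the lower change in RNA-seq, and inside it 2 of 6 did and 1 had the higher change, RARS1.

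m6A was read as IP over input in each peak, and its change as the interaction of genotype and IP in edgeR's quasi-likelihood test. The input counts of non-overlapping peaks are the same counts that gave the input reading of each gene above. A lower input count raises IP over input, so the input and m6A results are not independent of each other. Of the 116 synthetase peaks, 57 were called by the authors in K513R and 59 in WT, many of them at the same place, and 88 passed the filter. Among these 88, 38 had higher and 7 had lower enrichment in K513R, against 13% higher and 9.61% lower among the 27252 peaks tested. The calls by compartment were as follows. Of 58 cytosolic peaks 36 were higher and none lower, and of 30 mitochondrial peaks 2 were higher and 7 lower. At an unadjusted p under 0.05, 1 cytosolic peak was lower, and DESeq2 called 0. The titles give each IP library the number of an input library, and with those pairs as a block the calls were 43 higher and 14 lower, of which 41 higher and 2 lower were cytosolic and 2 higher and 12 lower were mitochondrial. With library size as the only scaling, which moved the median change of all peaks from -0.05 to -0.26, the calls were 15 higher and 10 lower, of which 14 higher and 1 lower were cytosolic. Leaving out 1 WT replicate left 12 to 17 calls, and leaving out K513R replicate 2 left 26.

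Counting each place once left 71 non-overlapping peaks, of which 52 were tested. Of 36 cytosolic ones 21 were higher and none lower, and of 16 mitochondrial ones 1 was higher and 4 were lower, against 12.8% higher and 11.1% lower among all 17185 non-overlapping peaks tested. The 21 peaks lie on 14 of the 18 cytosolic genes that have a peak, and of the rest VARS1 had no tested peak. All 18 were called lower in RNA-seq, so that call cannot set genes with a gain apart from the others. The sizes of their RNA-seq changes were not compared. The higher peaks lay mostly toward the start of the transcript. Among cytosolic peaks centred in the first 50% of the exonic length 18 of 23 were higher, against 17.5% of all such peaks, and in the rest 3 of 13 were higher, against 6.89%. Most of the cytosolic peaks were also weakly enriched in WT. In the quartile of peaks with the lowest WT enrichment, 16 of 23 cytosolic peaks were higher, against 35% of all peaks in that quartile, and in the quartile with the highest, none of 4 was, against 0.924% (0 also at an unadjusted p under 0.05). Mitochondrial peaks were more strongly enriched in WT, with 7 of 16 in the highest quartile and 3 in the lowest. In the middle quartiles the medians of the log2 change had opposite signs in the compartments, though over few peaks. In the second lowest they were 0.82 over 6 cytosolic and -0.43 over 4 mitochondrial peaks. In the second highest they were 1.203 over 3 cytosolic and -1.96 over 2 mitochondrial peaks. The medians were similar in the outer quartiles, at 0.76 for cytosolic and 0.65 for mitochondrial peaks in the lowest. In the highest they were -0.52 for cytosolic and -0.63 for mitochondrial peaks. In that highest quartile 2 of 7 mitochondrial peaks were lower, against 15.8% of all peaks in it. Compartment and WT enrichment therefore move together here, and their parts in the difference were not tested. The WT libraries enter both the quartile and the change, so quartile and change are not independent.

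**Figure D4:**
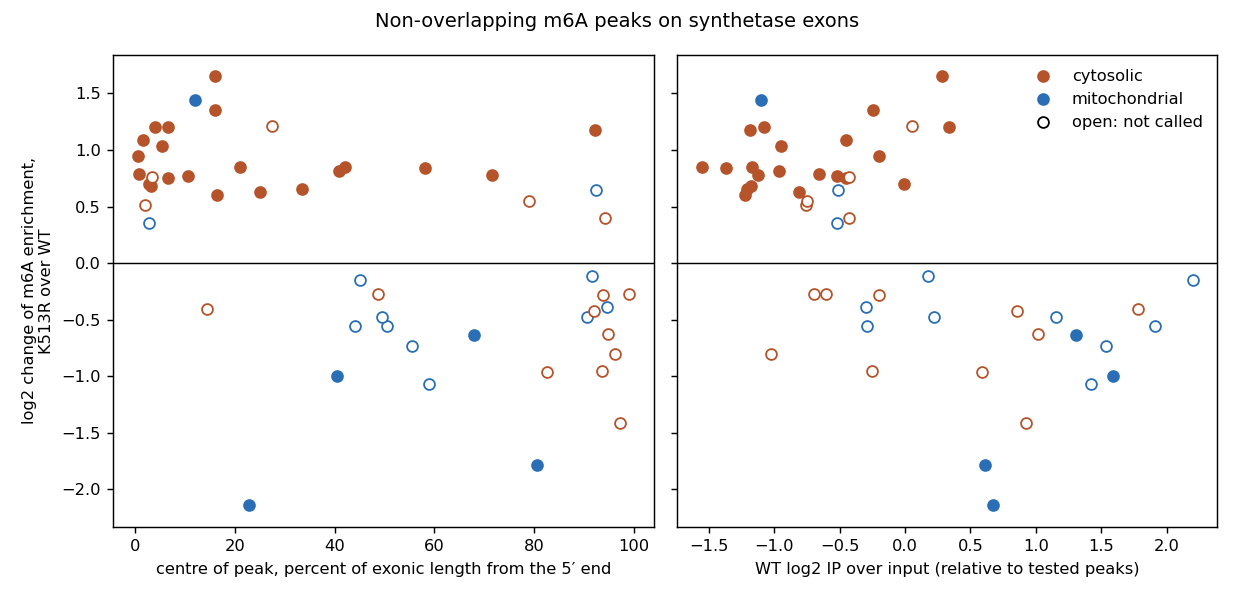
Log2 change of m6A enrichment, K513R over WT (y axis), of the 52 non-overlapping synthetase peaks tested, against the position of the peak centre in percent of exonic length (left) and against the WT log2 IP over input (right), with cytosolic peaks in orange, mitochondrial peaks in blue and open circles where the adjusted p was 0.05 or more. Filled orange points all lie above 0, and all but 1 of the 5 filled blue points lie below 0.

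Values of log2 IP over input are relative to the tested peaks as a whole, so a negative value means weaker enrichment than is typical of them. The largest loss was in FARS2, at chr6:5368794-5369153 (plus strand), inside exonic block 3 of 12. It read -1.365, -1.590 and -1.005 in K513R, against 0.58, 1.01 and 0.49 in WT, a change of -2.14 ± 0.35 (adjusted p = 0.00073) that was called in all 6 fits leaving out a replicate. In AARS2, a peak in the last exonic block (chr6:44299539-44299959, minus strand) read -0.39, -1.25 and -1.23 in K513R, against 0.66, 0.33 and 1.04 in WT, a change of -1.79 ± 0.49 (adjusted p = 0.0138). It rests on 36 IP and 40 input counts in K513R and on 272 IP and 72 input counts in WT, and was called in 3 of 6 such fits. HARS2 had a peak in its last block (chr5:140698616-140699305, plus strand), part of which is also annotated to ZMAT2. It read -0.54, -0.85 and -1.19 in K513R, against 0.39, 0.63 and 0.35 in WT, a change of -1.37 ± 0.29 (adjusted p = 0.00317). Longer deposited peaks that cover much of the same HARS2 exon and reach beyond the gene were not called, at -0.11 ± 0.34 (adjusted p = 0.841) and -0.05 ± 0.36 (adjusted p = 0.941). In none of these 3 peaks did the genotypes overlap. In PARS2 the K513R and WT libraries overlapped, and the change of -0.996 ± 0.357 (adjusted p = 0.0481) was called in 1 of 6 such fits.

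The largest gain was in MARS1, at chr12:57488001-57488253 (plus strand), a peak that covers the promoter match printed above. It read 1.24, 1.98 and 2.34 in K513R, against 0.85, -0.06 and 0.10 in WT, a change of 1.65 ± 0.48 (adjusted p = 0.0177), and was called in 4 of 6 fits leaving out a replicate. Its depth is low, as all non-overlapping MARS1 peaks together held 24, 7 and 12 input counts in K513R libraries and 27, 36 and 43 in WT libraries. TARS2, the threonine enzyme of mitochondria, had a peak at its 3′ end (chr1:150507452-150507602, plus strand) that read 2.124, 2.137 and 1.397 in K513R, against 0.97, 0.42 and 0.18 in WT. Its change of 1.59 ± 0.52 (adjusted p = 0.0338) rests on 18 input counts in K513R and 27 in WT and was called in 1 of 6 such fits. The longer WT peak that covers the same bases (chr1:150505646-150507602) read -0.48 ± 0.25 (adjusted p = 0.167) and the neighbouring K513R peak read -0.63 ± 0.25 (adjusted p = 0.0688), so the direction at the TARS2 3′ end differed between overlapping or adjacent peaks and only the short one was called. CARS2 carried the other mitochondrial gain, at chr13:110705922-110706398 (minus strand), with 0.05, 0.48 and 0.24 in K513R, against -1.18, -1.48 and -0.68 in WT. That change, 1.44 ± 0.32 (adjusted p = 0.00437), was called in all 6 such fits.

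FARSA had a peak over its first 3 exonic blocks (chr19:12930652-12933799, minus strand, 301 exonic bases). It read 0.79, 1.04 and 1.41 in K513R, against -0.34, -0.33 and -0.06 in WT, a change of 1.35 ± 0.23 (adjusted p = 0.000984). RARS1 had a peak over its first 3 blocks (chr5:168486469-168488648, plus strand) that read 1.62, 1.36 and 1.54 in K513R, against 0.10, 0.61 and 0.35 in WT, a change of 1.203 ± 0.244 (adjusted p = 0.00248). Both were clear of overlap and were called in all 6 such fits. TARS1 gained by 1.199 ± 0.181 in a peak at chr5:33440917-33441067 (adjusted p = 0.000423), again over the promoter match. KARS1 had 3 non-overlapping peaks called higher and LARS1 had 3, the most of any synthetase gene. The KARS1 peaks were called in 2, 2 and 4 of 6 fits leaving out a replicate, and the LARS1 peaks in 6, 5 and 2. GARS1, CARS1 and HARS1 of the cytosolic genes, and EARS2, LARS2, MARS2, NARS2 and WARS2 of the mitochondrial genes, had tested peaks but none called. No peak of VARS1, RARS2 or YARS2 passed the filter, and QARS1, IARS2, SARS2 and VARS2 had no deposited exonic peak.

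Genes that work with the synthetases were read from the same RNA-seq fit, in which 36.9% of all genes tested were lower and 41.5% were higher. Within the WT range of the synthetases these shares were 55.3% and 28.4%. Of the scaffold genes, AIMP2 had 7.67, 7.41 and 5.93 CPM in K513R libraries, against 34.6, 35.4 and 37.8 CPM in WT libraries (log2 fold change -2.36 ± 0.12, adjusted p = 1.01e-11), with 29.1% of its exonic length shared with EIF2AK1 on the other strand. EEF1E1 was lower by a log2 fold change of -0.59 ± 0.21 (adjusted p = 0.0173) with overlapping libraries, and AIMP1 was not called, at 0.27 ± 0.12 (adjusted p = 0.0554). With upper-quartile factors 1 scaffold gene was lower and 1 was higher. Of the 4 genes that correct or form mitochondrial aminoacyl-tRNA, QRSL1 and GATB were lower, 1 was higher and 1 was not called. QRSL1, a subunit of the glutamyl-tRNA amidotransferase, had 4.08, 4.68 and 4.04 CPM in K513R libraries, against 28.4, 29.9 and 27.1 CPM in WT libraries, a log2 fold change of -2.74 ± 0.12. GATB, another subunit, changed by -1.35 ± 0.11, while GATC, which shares 47.6% of its exonic length with other genes, changed by 0.65 ± 0.12. In the inputs AIMP2 read 0.01 and QRSL1 read 0.09 on the log2 scale, and neither was called.

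All 4 genes of tRNA export and editing were lower, where 36.9% of all genes tested were lower and 41.5% were higher. Of genes within the WT range of the synthetases, 55.3% were lower and 28.4% were higher. DTD1, which removes D-amino acids from tRNA, had 3.91, 3.21 and 3.29 CPM in K513R libraries, against 46.8, 43.2 and 33.4 CPM in WT libraries, a log2 fold change of -3.57 ± 0.15 (adjusted p = 7.29e-13). XPOT, the tRNA exportin, changed by -1.49 ± 0.11, AARSD1, an alanyl-tRNA editing factor, by -1.19 ± 0.13 and DTD2 by -0.74 ± 0.14. Other genes share 34.2% of the exonic length of AARSD1 and 72.2% of that of DTD2. DTD1 was also lower in the inputs, by -1.01 on the log2 scale (adjusted p = 0.00523). XPOT and DTD2 were not called there, at -0.11 and -0.20, and AARSD1 was not tested. The elongation factors, which carry charged tRNA to the ribosome and move it along, also differed by compartment, though most mitochondrial synthetase genes were lower and most mitochondrial factors were higher. All 5 cytosolic factors were lower, with log2 fold changes of -1.47 ± 0.11 for EEF1B2, -0.93 ± 0.13 for EEF1D, -0.53 ± 0.12 for EEF1G, -0.36 ± 0.12 for EEF2 and -0.33 ± 0.12 for EEF1A1, though only 3 were called with upper-quartile factors. For EEF1G, 99.7% of the exonic length is also annotated to another gene on the same strand. In the inputs EEF1A1 went the other way, higher by 0.75 on the log2 scale (adjusted p = 0.00919). EEF1G was lower there, by -0.45 (adjusted p = 0.00596), EEF1D and EEF2 were not called, and EEF1B2 was not tested. Of the 4 mitochondrial factors 3 were higher and TSFM, at -0.22 ± 0.10, was not called, though it was called lower with library size as the only scaling. TUFM, the mitochondrial factor that delivers charged tRNA, had 2653, 2401 and 2420 CPM in K513R libraries, against 515, 525 and 621 CPM in WT libraries, a log2 fold change of 2.17 ± 0.12 (adjusted p = 3.16e-11). GFM1 changed by 0.87 ± 0.10 and GFM2 by 0.58 ± 0.11. TUFM was also higher in the inputs, by 1.06 (adjusted p = 0.0157), while TSFM, GFM1 and GFM2 were not called there.

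In the list of GCN2 and ATF4 pathway genes 12 of 14 were lower and 1 was higher in K513R RNA-seq, with a median log2 fold change of -1.24. Among all genes tested 36.9% were lower and 41.5% were higher, with a median of 0.13. Among genes within the WT range of the synthetases, 55.3% were lower and 28.4% were higher, with a median of -0.46. ATF4 had 138, 143 and 145 CPM in K513R libraries, against 352, 391 and 384 CPM in WT libraries, without overlap (log2 fold change -1.40 ± 0.11, adjusted p = 1.24e-09). The largest falls were those of CEBPB, a partner of ATF4 (-3.02 ± 0.26, with 1.15 ± 0.186 CPM in K513R and 9.38 ± 3.61 CPM in WT, SD, n = 3 each), and of TRIB3, an ATF4 target (-2.41 ± 0.19). SHMT2, the serine hydroxymethyltransferase of mitochondria, was the gene that rose, by 1.18 ± 0.11 on the log2 scale. DDIT3, whose exons share 27.2% of their length with MARS1 on the other strand, was not called (-0.11 ± 0.10, adjusted p = 0.33). In the inputs, 9 of the 14 genes were tested and edgeR called 0 at the adjusted threshold and 0 at an unadjusted p under 0.05, ATF4 reading 0.20 on the log2 scale (adjusted p = 0.13). Among all genes tested in the inputs 13.6% were lower and 13.5% were higher.

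**Figure D5:**
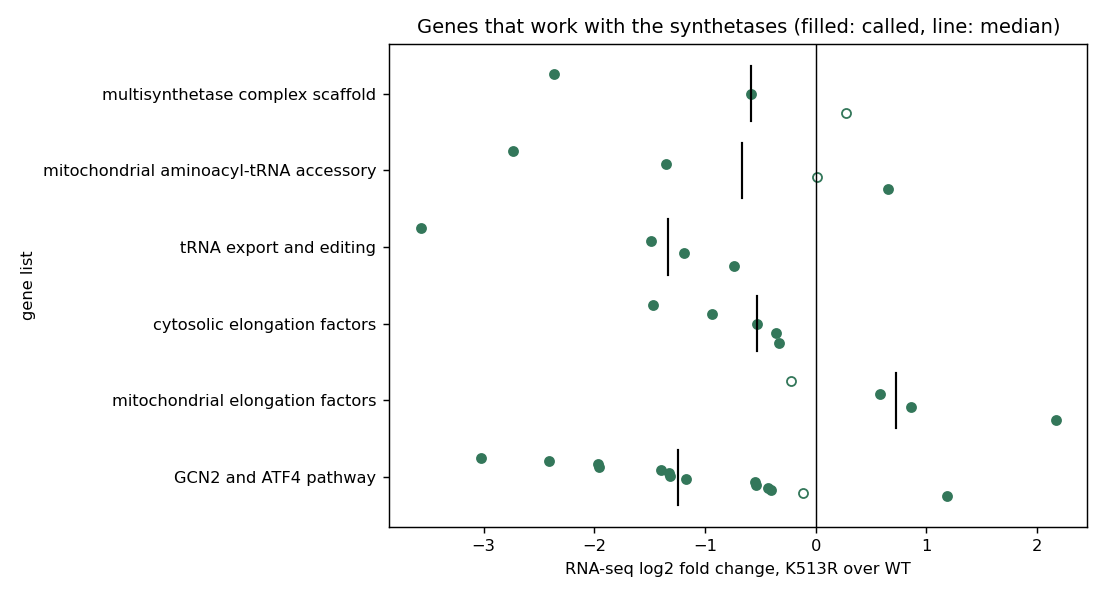
RNA-seq log2 fold change of K513R over WT (x axis) of each gene in 6 lists of genes that work with the synthetases (rows), filled where the adjusted p was under 0.05, with a black line at the median of each list. The cytosolic elongation factors lie left of 0 and 3 of 4 mitochondrial ones lie right of 0, while 12 of 14 GCN2 and ATF4 pathway genes are lower.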

How the data were processed

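The 35 genes were chosen by name, with no measured value in the rule. Earlier results of these data were known when these genes, the compartments and the related gene lists were set. The authors deposited whole-number counts per gene for 6 RNA-seq libraries and whole-number counts per m6A peak for 12 MeRIP libraries. The fold enrichment that the authors deposited for each peak, a ratio, was used to choose stronger peaks in 1 alternative. The log2 differences and p-values per peak that the authors deposited were not used for any result. Per the submitters' processing notes, the build was GRCh38 and the tools included edgeR 3.12.1, Subread 1.5.1 with featureCounts, Trimmomatic 0.36, deepTools and bedtools. Which aligner was run is not given in the sources used here, nor is the program that called peaks. The authors called peaks in a K513R list of 15406 and a WT list of 24302, so peaks at 1 place can occur in both.

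Tests were two-sided quasi-likelihood tests of edgeR 4.0.16 (R 4.3.3) with robust dispersions, the filterByExpr filter and TMM factors, fitted on all genes or all peaks with Benjamini-Hochberg adjustment over all of them. A call is an adjusted p under 0.05. In peak and joint models TMM factors were computed within each kind of library, and the joint model kept genes past the filter in both assays. Biological coefficients of variation came to 10.5% for inputs, 13.7% for RNA-seq, 15.2% for peaks and 10.7% for the joint model. CPM use the same factors, and SD are over 3 libraries. Log2 IP over input was taken per library from CPM with 0.5 added. Peaks were matched to exons of the count table on the same strand by at least 1 base with bedtools 2.31.1, and overlapping peaks were reduced to those with the most counts. Models were tested on simulated data with known changes. No 2 RNA-seq libraries were identical. Members of lists are not replicates, so compartments and lists were described by counts and medians with no test. Every gene named was taken by a rule that covers all 35 synthetase genes, the largest changes, levels and peak changes, the called genes of short lists and the 2 largest changes each way of the long list, and QARS1, RARS1, FARSB, ATF4 and some list members were added after their values were seen. Alternatives were other scalings and filters, DESeq2 1.42.0, limma-voom 3.58.1, a replicate block, stricter peaks and leaving out each replicate.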

Additional observations from a re-analysis of the deposited data

Results flagged for a closer look

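The change of K513R over WT differed between RNA-seq and MeRIP input for 21 of the 27 synthetase genes in both tables, by the assay by genotype term of the joint edgeR model (adjusted p under 0.05), where 64.1% of all 7835 genes differed. The largest differences of the log2 fold change, RNA-seq minus input, were -1.65 for CARS1, -1.60 for SARS1, -1.48 for YARS1 and -1.46 for FARSA. All of these were called in every fit that left out a replicate. The assays differ in RNA (total without rRNA, against poly(A)), in library kit and in what is counted (whole genes, against reads inside peaks), and the cause was not tested. No group has more than 3 libraries, so single libraries were not tested as outliers.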

How the results depend on the processing

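In RNA-seq the 33 calls became 29 with upper-quartile factors, which shifted the all-gene median to 0.39 in place of 0.13 (log2), and 32 to 33 over the other settings and left-out replicates. Of 315 gene values under alternatives 307 kept their direction and side of the threshold. With upper-quartile factors QARS1 turned to 0.17 (adjusted p = 0.181) and TARS2 to 0.14 (adjusted p = 0.241), and RARS1, AARS2, FARS2 and HARS2 lost their calls. The cytosolic minus mitochondrial difference was -0.89 without genes that share over 10% of their exonic length, -0.54 within the shared range of WT levels (a setting added after the data were seen), and -0.83 to -0.63 with a replicate left out. In K513R the ratio of median levels became 3.47 without the shared genes. The cytosolic elongation factors called became 3 with upper-quartile factors. In the inputs, leaving out a replicate gave 6 to 15 calls, and a difference of medians of -0.84 to -0.31, against -0.46 with all libraries. The 45 peak calls became 25 with library size only, 11 for peaks above the median deposited score, 15 at an adjusted p under 0.01, 24 with an overlap of at least 50% of the peak and 25 with non-overlapping peaks refitted alone (added later). Leaving out a replicate gave 12 to 50 peak calls, and 18 to 21 calls between assays. The cause was not tested, except that the settings on score, overlap and non-overlapping peaks read fewer peaks by construction and the stricter threshold calls fewer.

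Replicate numbers did not pair the RNA-seq libraries, with correlations of -0.016, 0.094 and 0.019 between same-numbered K513R and WT libraries. IP and input of the same number correlated best with each other in all 6 cases, at 0.040 to 0.189, and their titles share that number without saying whether the RNA was the same. With the replicate block the counts of calls were 33 in RNA-seq, 10 in the inputs, 57 among peaks (43 higher and 14 lower) and 20 between assays. Depth limits peaks such as those of AARS2 and TARS2, with 40 and 18 input counts over the K513R libraries.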
